A study of Mus musculus with 24 samples.

Results

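Ependymal cells, the ciliated cells that line the brain's ventricles, were taken from single-cell RNA libraries of mouse dorsal striatum. They were chosen by their counts of unique molecular identifiers (UMIs, each standing for 1 captured mRNA molecule). Cells with at least 1000 UMIs, at least 500 genes and at most 20% mitochondrial UMIs were kept when Ccdc153, Tmem212 and Rarres2 together had at least 5 UMIs and Foxj1 and Ccdc153 together at least 1. Cells with over 3 UMIs of Snap25, a neuronal synaptic gene, or any UMI of Top2a, a gene of dividing cells, were set aside. The rule selected 944 of 53354 passing striatal cells, and of 103715 passing cells in the whole series. Among 50361 passing motor cortex cells, 35 had a marker sum of at least 5 and 0 met the whole rule.

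The striatal mice carried Arc-CreER::Ai9, in which Arc-driven recombinase and 4-hydroxytamoxifen (4-OHT) label recently active cells with the Ai9 reporter. Mice learned a forelimb reaching task for 2 days (early) or 8 days (late) before labelling, while controls received 4-OHT without training, so that every group carried the transgenes and the drug. Striatum was dissected 3 days after labelling, pooled by hemisphere from 1 male and 1 female mouse per pool, dissociated with papain and depleted of dead cells. Each stage had 2 pools, and the pool was the replicate. Of 12 striatal libraries, 11 entered here, and control pool 1 was represented by its left hemisphere only.

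Motile ependymal cilia beat in concert and move cerebrospinal fluid along the ventricle wall. A motile cilium is built on an axoneme of microtubule doublets around a central pair. Dynein arms slide the doublets against each other, radial spokes and the central pair coordinate the beat, and intraflagellar transport carries the parts to the tip. Foxj1 and the RFX family are transcription factors known to switch on this set of genes, and the lateral ventricle whose wall these cells form borders the striatum.

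The 944 cells held 3491100 UMIs, with a median of 3084.5 UMIs and 1789 genes per cell, against 2768 UMIs and 1592 genes in the other striatal cells. Control pools 1 and 2 gave 61 and 37 ependymal cells, early pools 122 and 185, and late pools 360 and 179. Their median depth per pool ran from 1595 UMIs in late pool 1 to 6111.5 in early pool 1, and their median mitochondrial share from 1.64% to 6.32%. By the barcodes that libraries share, control pool 1 and late pool 1 used 1 version of the 10x kit (class A below) and the other pools another (class B). These 2 pools also shared a batch label, control pool 2 and early pool 1 shared another, and early pool 2 and late pool 2 each had their own. No cell barcode was shared between ependymal cells of different libraries. Among all 53354 passing striatal cells 287 barcode pairs were shared, so few or none would be expected among 944 cells. Doublet scoring with Scrublet put 63 of the 944 cells among the highest scores of their libraries. Over all 53354 passing striatal cells 2727 were so marked, a number set in advance by the barcodes of each library. A further 22 cells had a marker sum of 4, just outside the rule, and 20 cells had a sum of 5, just inside it. At the Snap25 limit, 8 cells had 3 UMIs and 6 cells had 4, and 34 cells were set aside for 1 UMI of Top2a.

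The cells carried the 4 genes that chose them in every pool, and with them a large set of cilia genes that the rule did not use. Foxj1, on chromosome 11 (GRCm38, 116330704 to 116335399), stood at 1027 UMIs per 1000000 UMIs of the same cells (CPM) in control pool 1, 944 in control pool 2, 957 and 799 in the early pools, and 852 and 676 in the late pools. Ccdc153, a coiled-coil protein gene on chromosome 9 (44240676 to 44247306), stood at 2498 and 1932 CPM in the control pools, 1791 and 1834 in the early pools, and 2577 and 1963 in the late pools. Both genes were above 600 CPM in every pool and under 6 CPM in the other striatal cells of every pool, and the lowest values were late pool 2 for Foxj1 and the early pools for Ccdc153. Tmem212, a membrane protein gene on chromosome 3 (27866066 to 27896368), stood at 1180 and 1770 CPM under control conditions, 2027 and 2124 after early and 1218 and 2355 after late training. Its 2 lowest values were those of the class A pools. Rarres2, which encodes the secreted attractant chemerin and lies on chromosome 6 (48569696 to 48572789), averaged 3110 ± 272 CPM (SD, n = 6 pools), against 25.0 ± 5.13 in the other cells. These 4 genes chose the cells, so their levels are a description with no test. The same holds for every contrast with the other cells below.

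At least 1 UMI of Ccdc153 was seen in 98.9% of ependymal cells and of Rarres2 in 99.4%, against 0.437% and 4.90% of the other cells. Foxj1 was seen in 86.4% of ependymal cells and 1.14% of the others. With every cell thinned to 1000 UMIs, Foxj1 was detected in 56.1% of ependymal cells, from 47.9% in late pool 2 to 67.1% in control pool 1. All 944 cells were deep enough for this thinning.

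Genes of the axoneme made up a stable part of the ependymal transcriptome. The 96 axoneme genes of 4 lists (dynein arms, their assembly factors, radial spokes and central pair, and other axoneme parts) took 1.81% and 1.97% of UMIs in control pools 1 and 2, 2.00% and 2.02% in the early pools, and 1.78% and 2.06% in the late pools. In the other striatal cells the same genes took 0.0322% to 0.0376%. The pools thus lay close together and the class A pools held both lowest values. Within single cells the share ranged from 0% to 3.78%, with a median of 1.97%, and 1 cell of 944 had no UMI of any of the 96 genes.

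**Figure D1:**
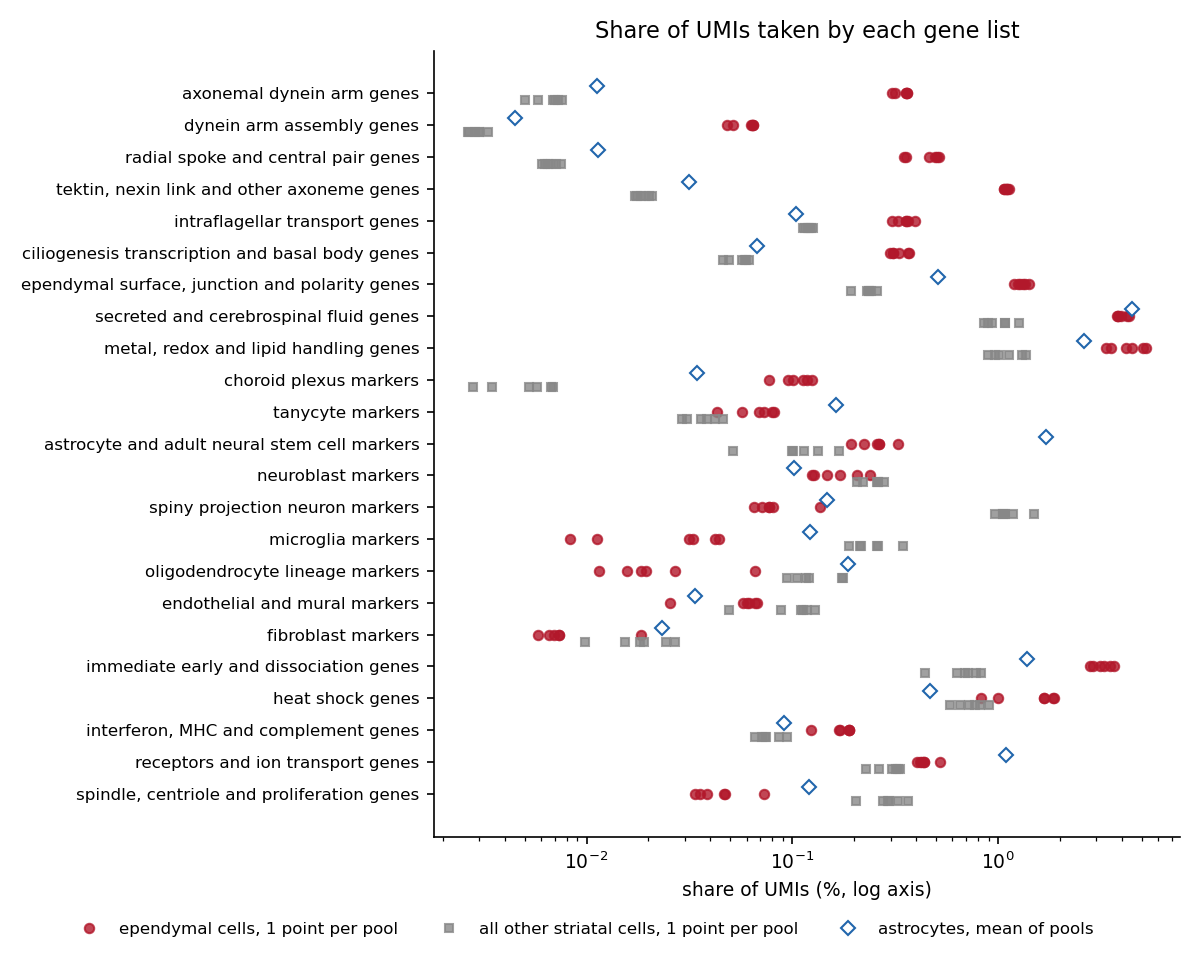
Share of all UMIs taken by each gene list on a log axis in percent: ependymal cells (red circles) and the other striatal cells (grey squares), 1 point per pool, and the mean of pools in astrocytes (blue diamonds). The 4 axoneme lists are more than 10 times higher in ependymal cells than in the other cells, whereas the spiny projection neuron and microglia lists lie lower in ependymal cells.

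Among the dynein arm genes, 20 of 20 were above the other cells in 6 of 6 pools. Over all 11963 genes with at least 5 CPM in ependymal cells, 28.9% were higher and 30.5% lower in all 6 pools, and the median log2 ratio was -0.01. The dynein arm list had a median log2 ratio of 5.87. Dynlrb2, a dynein light chain gene, averaged 741 ± 254 CPM (SD, n = 6) and stood at 1069 and 719 CPM in control pools 1 and 2, 495 and 567 in the early pools, and 1040 and 553 in the late pools. Its 2 highest values came from the class A pools. Dnali1, a light intermediate chain of the inner arm, averaged 313 ± 32.3 CPM, against 0.831 in other cells. The heavy chain genes Dnah12 and Dnah6 averaged 288 and 225 CPM, against 0.728 and 1.90. Dnah12 was lowest in the class A pools, at 215 and 137 CPM, and between 293 and 369 in the rest.

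Dynein arms are assembled in the cytoplasm before they enter the cilium. Of the 14 assembly factor symbols, 11 were in the files and 10 had a UMI. Of those 10, 9 were above the other cells in every pool, and the exception was Dnaaf2, which stood at 7.78 CPM against 3.38 and was higher in 3 pools. Zmynd10 averaged 102 ± 26.2 CPM, Dnaaf3 78.0 ± 10.6, Daw1 75.0 ± 14.3 and Lrrc6 71.3 ± 27.5 (SD, n = 6). These genes were seen in 22.1% to 29.2% of cells, so at this depth most cells showed no UMI of a given assembly factor. The list was at 0 in 22.8% of cells.

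All 19 of the radial spoke and central pair genes in the files were higher in 6 of 6 pools, with a median log2 ratio of 5.45. Rsph1, a radial spoke head gene, had 673 and 856 CPM in control pools, 838 and 971 in early pools, and 733 and 1032 in late pools, against 3.31 to 5.66 in the other cells. Cfap54, a central pair protein gene, averaged 478 ± 184 CPM and was lowest in control pool 1 (194) and late pool 1 (321). Ak7, an adenylate kinase of motile cilia, averaged 436 CPM, and Spef2, a central pair gene, 380 CPM. Of the 46 other axoneme genes, all but Tekt2 were higher in all 6 pools. Tekt2, a tektin, was higher in 5 pools, at 4.99 CPM against 1.19. The microtubule-binding gene Tppp3 averaged 902 ± 316 CPM and was also present in other cells at 34.2 CPM. The less characterised genes 1110017D15Rik, 1700012B09Rik and Fam183b averaged 902, 595 and 594 CPM, against 7.38, 1.55 and 2.24 in the other cells.

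Intraflagellar transport genes serve primary as well as motile cilia, and their contrast with other cells was smaller. Of 27 genes, 21 were higher in 6 of 6 pools, with a median log2 ratio of 1.87. Ift20 averaged 349 ± 71.9 CPM against 151 in other cells, and Ift43 322 ± 35.6 against 30.5. Ift22 averaged 250 CPM and Dync2li1, a light intermediate chain of the retrograde motor, 238 CPM, against 62.6 and 29.4. The anterograde motor subunit genes did not share this pattern. Kifap3 stood at 124 CPM against 269 and Kif17 at 12.6 against 28.0, lower in all 6 pools, while Kif3a and Kif3b were higher in 3 of 6.

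Among transcription factors and basal body genes, 21 of 28 with a UMI were higher in every pool. The centrin gene Cetn2 averaged 507 ± 30.5 CPM against 68.0, Cetn4 237 ± 26.4 against 24.7, and the centriolar satellite gene Pcm1 178 ± 89.3 against 124. The RFX genes Rfx3 and Rfx4 averaged 126 ± 52.8 and 110 ± 30.3 CPM, against 40.8 and 13.8. Myb, which acts early in multiciliated cell formation, averaged 126 ± 31.1 CPM against 4.12. Genes that start the amplification of centrioles were near the limit of detection: Mcidas had 2 UMIs in all 944 cells and Gmnc 35.

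The X-box, an inverted repeat bound by RFX factors, was searched in the 250 bases before the start of each gene in RefSeq's promoter table (GRCm38.p6). The short form GTTGCC occurred on either strand in 25 of 76 axoneme genes with a promoter in the table (32.9%), in 7 of 22 intraflagellar transport genes (31.8%) and in 3195 of all 27025 promoters (11.8%). The full X-box, an inverted repeat of 14 bases that starts with GTT and ends with AAC and can contain the short form, occurred in 7 of 76 axoneme genes (9.21%), 1 of 22 intraflagellar transport genes (4.55%) and 212 of all promoters (0.784%). The stretches around the match are shown for the 4 such axoneme genes with the most UMIs, each 5′ to 3′ on the gene's own strand and running to its start, with the match in capitals, so that the sequence can be read beside the level.
Pifo (chr3:106001498-106001557, minus strand): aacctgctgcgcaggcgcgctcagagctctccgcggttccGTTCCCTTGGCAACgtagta
Hydin (chr8:110266916-110266976, plus strand): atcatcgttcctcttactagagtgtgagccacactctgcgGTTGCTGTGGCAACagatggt
Cfap44 (chr16:44394732-44394798, plus strand): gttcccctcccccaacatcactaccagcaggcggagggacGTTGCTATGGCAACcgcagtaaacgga
Cfap45 (chr1:172521071-172521129, plus strand): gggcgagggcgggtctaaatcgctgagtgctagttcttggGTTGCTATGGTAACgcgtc
The matches of Hydin, Cfap44 and Cfap45 follow the motif on the opposite strand. They end 7, 13 and 5 bases before the start of their genes, and that of Pifo 6 bases before. Pifo, needed for cilium disassembly, averaged 366 ± 45.5 CPM, Hydin, a central pair gene, 236 ± 81.3, Cfap44 220 ± 90.1 and Cfap45 202 ± 46.2 (SD, n = 6). In the other striatal cells none of these 4 genes exceeded a mean of 1.94 CPM. A match of letters does not show that a factor was bound there.

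Beyond the cilium, genes for the cell surface took 1.30% of UMIs, and those for secreted proteins and metal handling took more than the 1.94% of the axoneme lists. Nnat, which encodes a small membrane proteolipid, averaged 5148 ± 817 CPM against 391 in other cells. Vim, an intermediate filament gene, averaged 1311 ± 250 CPM, and Sox9, a transcription factor of glia, 1166 ± 245. Cd24a, a surface glycoprotein gene used to sort ependymal cells, stood at 1499 and 1012 CPM in control pools 1 and 2, 898 and 685 in early pools, and 1372 and 684 in late pools. Its highest values were again those of the class A pools. Of 28 genes of surface, junction and polarity with at least 5 CPM, 16 were higher and 5 lower in all 6 pools. The genes at lower levels included the planar polarity gene Celsr2, at 37.7 CPM against 88.6, and Ank3, at 51.2 against 389. Ezr, which links membrane to actin in microvilli, averaged 687 ± 148 CPM against 55.0.

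Genes for secreted and fluid proteins took 3.99% ± 0.221 of UMIs (SD, n = 6) against 1.02% in other cells. Dbi, which encodes an acyl-CoA-binding protein also known as diazepam-binding inhibitor, held 15017 and 14465 CPM in control pools, 13185 and 13973 in early pools, and 15420 and 15284 in late pools. In the other cells it held 328 to 581 CPM, and in astrocytes (called by marker UMIs) 2006. Apoe, the main brain apolipoprotein, averaged 9097 ± 1249 CPM, above the 1353 of all other cells but below the 15190 of astrocytes. Clu, a secreted chaperone gene, averaged 2035 ± 794 CPM, with 833 and 1266 in the class A pools and 2218 to 2695 elsewhere. Cst3, which encodes the protease inhibitor cystatin C, was lower in ependymal than in other cells in all 6 pools, at 1551 ± 316 CPM against 4678.

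**Figure D2:**
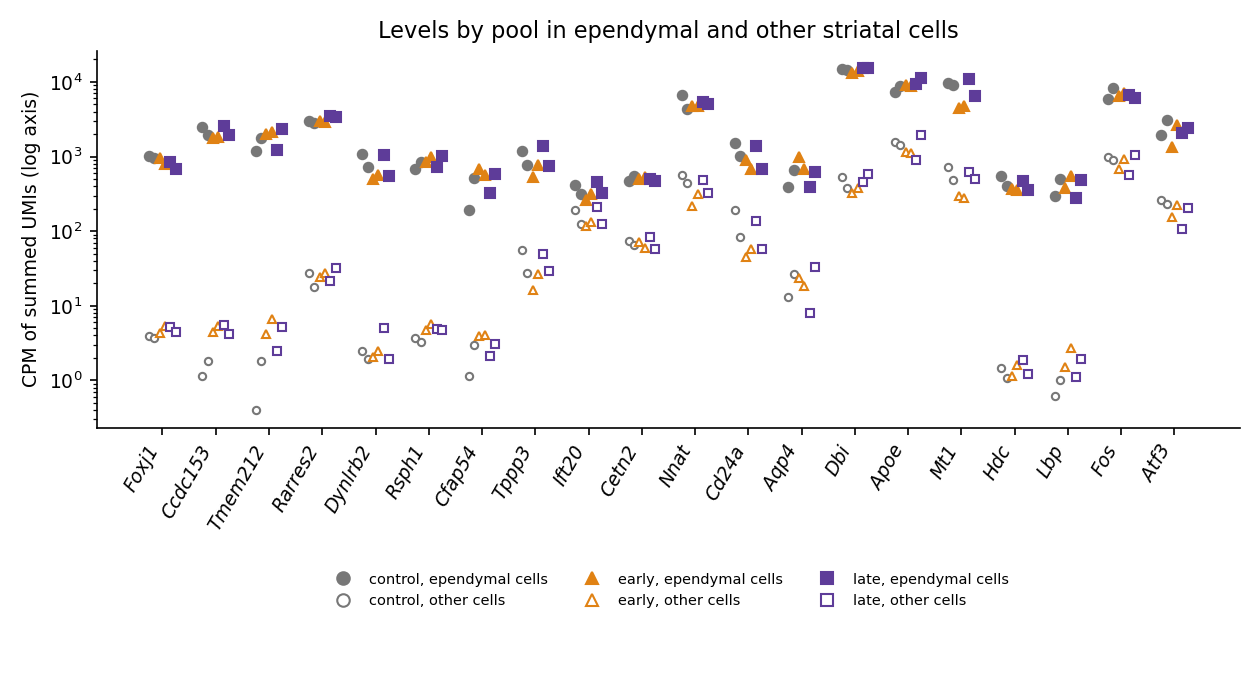
Level of 20 genes in each pool, in CPM of summed UMIs on a log axis, in ependymal cells (filled) and in the other striatal cells (open), coloured by stage. The axoneme gene Rsph1 stays between 673 and 1032 CPM in ependymal cells and under 6 CPM elsewhere, while Ift20 shows a small contrast.

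Metal and redox genes took 4.31% ± 0.768 of UMIs, and varied between pools from 3.36% to 5.22%. The metallothionein Mt1 stood at 9680 and 9130 CPM in control pools, 4513 and 4717 in early pools, and 10780 and 6468 in late pools. Its early pools, both of class B, were the lowest, and its 2 highest values were those of the class A pools. How many of all genes have both early pools lowest was not counted. Mt3 averaged 4111 ± 1201 CPM and was also lowest in the early pools, at 2910 and 2518. Neither gene passed the test of early against control given below. Fth1, the ferritin heavy chain, averaged 5224 ± 1928 CPM, with 7751 and 7624 in the class A pools and 3513 to 4313 in the others. Among the leading genes by their ratio to other cells, Hdc, on chromosome 2 (126593667 to 126619299), encodes the enzyme that makes histamine. Hdc averaged 417 ± 81.1 CPM against 1.39 and was detected in 67.6% of cells, or 33.6% after thinning.

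Receptors and transporters of the ventricular surface were present at moderate levels. Slc2a1, the glucose transporter of brain barriers, averaged 474 ± 145 CPM against 68.2. The endocytic receptor Lrp2 averaged 126 ± 35.7 CPM against 0.30 in other cells, and was detected in 30.3% of cells. The channel gene Aqp4 averaged 623 ± 220 CPM and the connexin Gja1 605 ± 118, where astrocytes had 359 and 984 CPM. Among interferon, MHC and complement genes, 12 of 20 with at least 5 CPM were higher in every pool, led by Ifitm3 at 824 ± 149 CPM against 49.1.

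Markers of other cell types were checked in the same cells. The choroid plexus list took 0.105% of UMIs against 0.00515% in other cells. Of its 8 genes with at least 5 CPM, 7 were higher than in other cells in every pool. The list had Lbp at 416 CPM, Calml4 at 284, Folr1 at 158 and Clic6 at 69.3, while its defining markers Ttr, Kl and Kcne2 had 0 UMIs in all 944 cells. A count of 0 among 3491100 UMIs allows up to 3 UMIs. The tanycyte list took 0.0671% of UMIs against 0.0371% in other cells and 0.164% in astrocytes. Of its 9 genes with at least 5 CPM, 4 were higher and 2 lower than in other cells in every pool. In this list Nes averaged 258 CPM and Scn7a 199, whereas Rax was at 0. The astrocyte list took 0.254% of UMIs against 0.111% in other cells and 1.71% in astrocytes, with Slc1a2 at 141 CPM and Gfap at 36.6. Of its 15 genes with at least 5 CPM, 9 were higher and 2 lower than in other cells in every pool. Neuroblast markers took 0.169% against 0.248% in other cells and 0.898% in neuroblasts, led by Cd24a. Astrocytes and neuroblasts were called by marker UMIs, so their high shares follow in part from that choice. Spiny projection neuron markers took 0.0844%, against 1.14% in other cells, and all 13 with at least 5 CPM were lower in every pool, led by Meis2 at 300 CPM, Foxp1 at 145 and Ppp1r1b at 134. Microglia markers took 0.00831% to 0.0443% of UMIs by pool, with C1qb at 61.6 CPM. The microglia list had 0 UMIs in 77.0% of the cells and the oligodendrocyte list in 61.8%. The neuroblast and spiny projection neuron lists were at 0 in 3.18% and 16.5%. The neuroblast list holds Cd24a, which alone was detected in 90.5% of ependymal cells. Leaving out every cell with at least 5 UMIs summed over the markers of another type removed 65 of the 944 cells, of which 40 were among the highest doublet scores. Those 65, called mixed cells below, included 21 with spiny projection neuron, 16 with microglial, 11 with oligodendrocyte and 9 with neuroblast markers. Without them the axoneme share averaged 1.99%, against 1.94% with them.

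Genes of dividing cells were sparse, as the rule asks for no Top2a. Mki67 had 0 UMIs, and Hmgb2 and Stmn1 averaged 135 and 122 CPM against 348 and 1011. Reporter transcripts were detected at a low level. The added wpre feature, part of the reporter construct, averaged 169 ± 46.7 CPM in ependymal cells, 125 in other cells and 139 in astrocytes. It was seen in 32.4% of ependymal and 17.5% of other cells, at median depths of 3084.5 and 2768 UMIs. After thinning the share in ependymal cells was 12.9%. The wpre level was 236 and 210 CPM in control pools, 145 and 106 in early pools, and 157 and 161 in late pools. Both control pools were above all 4 trained pools, but 1 cell weighs on this order. That cell, from the right library of control pool 2, held 15 of the 522 wpre UMIs, where its pool had 204488 UMIs of all genes. How many of all genes have this order was not counted. The tdtomato feature had 11 UMIs in 9 cells. Of 2 reporter features tested, 0 passed in the stage comparisons given below. In early against control 1 of the 2 was lower at an unadjusted p under 0.05 in edgeR's quasi-likelihood test.

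Immediate early and dissociation-associated genes were abundant. The list took 3.20% ± 0.333 of UMIs in ependymal cells, 0.680% in other cells and 1.39% in astrocytes. Fos stood at 5829 and 8343 CPM in control pools, 6465 and 7086 in early pools, and 6725 and 6157 in late pools, and had a UMI in all 944 cells. The control values spanned those of both trained stages. Jun averaged 3228 ± 803 CPM, Egr1 2589 ± 628 and Atf3, a stress-response factor, 2241 ± 597. The neuronal activity genes Arc and Npas4 stood at only 62.9 and 10.5 CPM. Hsp90aa1, a chaperone gene, was at 2928 and 2460 CPM in the class A pools and 6921 to 8036 CPM in the others. The papain digestion and the animals' activity cannot be told apart as sources of these transcripts.

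The share of ependymal cells among passing cells was compared between stages. It was 0.992% (Wilson 95% interval 0.773 to 1.27) and 0.476% (0.346 to 0.656) in control pools 1 and 2. It was 1.32% (1.11 to 1.57) and 2.00% (1.73 to 2.30) in the early pools, and 3.08% (2.78 to 3.41) and 1.94% (1.68 to 2.24) in the late pools. Both control pools were below all 4 trained pools, while early and late overlapped. Controls averaged 0.734% ± 0.364, early pools 1.66% ± 0.477 and late pools 2.51% ± 0.806 (SD, n = 2). By an exact two-sided permutation test of pools, the early minus control difference of 0.924 percentage points had p = 0.333, the late minus control difference of 1.77 had p = 0.333, and the late minus early difference of 0.850 had p = 0.667. With 2 pools against 2, the smallest p possible is 0.333, so none could pass 0.05. Within the batch of control pool 1 and late pool 1 the shares were 0.992% and 3.08%, and within that of control pool 2 and early pool 1 they were 0.476% and 1.32%. With cells limited to at least 2000 UMIs, at least 1000 genes and at most 10% mitochondrial UMIs, the late minus control difference was 1.14 points and late minus early -0.0840. With a marker sum of at least 10, late pool 1 was at 2.10% and the late minus early difference was 0.390. The intervals cover counting error only, and how much ventricle wall each dissection held cannot be told apart from the stage.

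**Figure D3:**
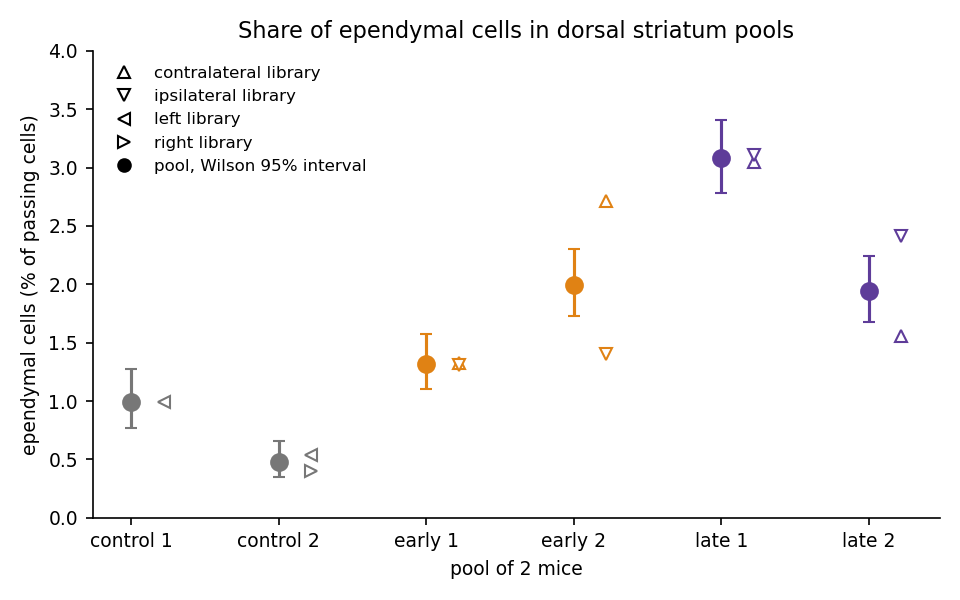
Ependymal cells as a percentage of passing striatal cells in each pool, with Wilson 95% intervals for counting error, coloured by stage, and open markers for the single libraries. Both control pools lie below 1%, and the 4 trained pools lie between 1.32% and 3.08%.

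Gene levels were next compared between stages, over UMIs summed per pool, with stage and kit class in the model. No gene passed in early against control (0 of 9660 tested, percent called 0) in edgeR's quasi-likelihood test with Benjamini-Hochberg adjustment at 0.05. In that comparison 590 genes had an unadjusted p under 0.05, and DESeq2 called 0, with 91 at an unadjusted p under 0.05. The 5 genes with the smallest p were all lower in early pools. Among them, Cebpd, a stress-responsive transcription factor gene, was at 48.6 and 196 CPM in control, 52.0 and 27.9 in early, and 27.4 and 33.7 in late pools, with an early minus control log2 difference of -2.05 ± 0.39 (SE). Its adjusted p was 0.140 in edgeR's quasi-likelihood test with Benjamini-Hochberg adjustment. Control pool 2 stood far above control pool 1 for this gene, and likewise for Rcan1 (523 against 173 CPM) and Sec61g (117 against 6.94). Lmo1 rested on 20 UMIs in 10 cells. Without control pool 2 the log2 difference of Cebpd was -0.55, that of Rcan1 -0.35 (from -1.58 with all pools) and that of Sec61g 0.52, the opposite sign. With a marker sum of at least 10 that of Cebpd was -1.25.

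Late against control gave 2 calls of 9660 (0.0207%) and late against early 3 (0.0311%), all higher in late pools, and DESeq2 gave 0 in both. In these comparisons 467 and 520 genes had an unadjusted p under 0.05 in edgeR, and 64 and 55 in DESeq2. The globin genes Hba-a1 and Hbb-bs, which belong to red blood cells, accounted for both calls against control and for 2 of the 3 against early. Hbb-bs stood at 41.6 and 19.6 CPM in control, 30.3 and 16.5 in early, 16.7 in late pool 1 and 1381 in late pool 2. One cell of late pool 2, ipsilateral, held 1056 Hbb-bs UMIs, or 93.6% of all in the 944 cells, and 315 of the 342 Hba-a1 UMIs (92.1%). That cell had 10430 UMIs, a marker sum of 46 and a doublet score among the highest. With the cells of highest doublet score removed, or the 65 mixed cells left out, 0 genes passed in all 3 stage comparisons, although the fold of the third call, described next, did not shrink. The uncalled genes with the smallest p in late against control were mt-Nd3 and Pcp4, with log2 differences of -1.80 and 1.71 and adjusted p of 0.0542 for each in edgeR's quasi-likelihood test with Benjamini-Hochberg adjustment. Without mixed cells the difference of Pcp4, a neuronal gene, was 0.75 with adjusted p = 0.960, and with doublets removed it was 0.73, in the same test. The difference of mt-Nd3 was 0.10 without control pool 2 and 0.045 without late pool 2. With kit class in the model, both of these fits compare late pool 1 with control pool 1. Each globin has near-identical copies, between which reads may be split.

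The third call, Gm9780, had 167 and 9.78 CPM in control, 14.1 and 30.4 in early, and 164 and 135 in late pools. Its late minus early log2 difference was 2.41 ± 0.43 (SE), with adjusted p = 0.0426 in edgeR's quasi-likelihood test with Benjamini-Hochberg adjustment. Control pool 1 was as high as the late pools and control pool 2 as low as the early ones. It was 2.54 without mixed cells and 2.51 with doublets removed, with adjusted p of 0.0920 and 0.110 in the same edgeR test. Without late pool 2 the difference was -1.13, in a fit whose kit term rests on the control pools alone. Gm6368, Gm12222, Gm15772, Rpl37rt and Cd63-ps came next with log2 differences of 1.75 to 3.45 and did not pass. Some of these are pseudogene-like copies whose reads may belong to another gene.

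The ciliary lists were close to the background of all genes between stages. Over the 93 axoneme symbols tested, the median log2 difference was 0.03 for early against control, 0.09 for late against control and 0.05 for late against early, beside 0.02, 0.03 and -0.00 over all genes. None of the 93 passed in any of the 3 comparisons, and 3, 4 and 5 of them had an unadjusted p under 0.05. The 27 intraflagellar transport genes had medians of 0.06, 0.04 and -0.08, and the 20 secreted genes tested -0.09, 0.09 and 0.23. In late against early 14 of these 20 were higher and 3 had an unadjusted p under 0.05, with 0 calls. Of 23 metal and redox genes, 18 were lower in early than in control pools, with a median of -0.21 and 4 at an unadjusted p under 0.05, where 47.8% of all 9660 genes were lower. In late against early 19 of the 23 were higher, with a median of 0.28 and 4 at an unadjusted p under 0.05, where 49.5% of all genes were higher. Both comparisons use the early pools, and the 1 call among the 23, in late against early and in late against control, was Hba-a1. Immediate early genes had medians of -0.14, 0.08 and 0.22 over 27 genes. Lists of other cell types moved as well, with 0 calls. Against control, spiny projection neuron markers were higher in 8 of 10 genes in early (median 0.84) and 9 of 10 in late pools (1.04). Microglia markers were higher in 7 of 9 (0.40) and 8 of 9 (0.79), where 52.2% and 52.4% of all genes were higher. Neuroblast markers were higher in only 1 and 2 of 7 genes. The fit had 2 residual degrees of freedom, and the 3 comparisons share pools.

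Kit class was accompanied by more differences than stage was. Between classes 518 of the 9660 genes passed (5.36%), 292 of them higher in class A. DESeq2 called 113 but gave no adjusted p for 7117 of the 9660 genes, so the counts are not over the same genes. The count was 213 without late pool 1, 220 without late pool 2 and 232 with a stricter cell filter (at least 1000 genes and 2000 UMIs and at most 10% mitochondrial UMIs). The mitochondrial ribosomal RNA genes mt-Rnr1 and mt-Rnr2 were lower in class A by log2 differences of -4.94 and -4.08. The ribosomal protein genes Rpl31 and Rpl23a were higher by 2.38 and 2.32. No early pool was in class A, and class A was also 1 batch label, so kit and batch cannot be told apart.

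Hemispheres were compared within the 4 trained pools, where contralateral and ipsilateral refer to the reaching limb. The share of ependymal cells was 1.33% contralateral and 1.31% ipsilateral in early pool 1, 2.71% and 1.403% in early pool 2, 3.049% and 3.105% in late pool 1, and 1.56% and 2.41% in late pool 2. The side with more cells differed between pools. The mean difference was 0.104 ± 0.893 percentage points (SD, n = 4), with p = 0.875 in an exact permutation test of the pairs, for which the smallest p possible is 0.125.

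Over all cells, 15 of 7442 genes passed between hemispheres (0.202%), 14 of them higher on the contralateral side, in edgeR's quasi-likelihood test with Benjamini-Hochberg adjustment. DESeq2 called 0. The lower gene was Hbb-bs, from the single cell described above. The higher genes included the complement genes C1qa, C1qb and C1qc, the chemokines Ccl3, Ccl4 and Cxcl2, and Ctss, Cst3 and Rgs10, which are all expressed by microglia. C1qb stood at 3.71 CPM contralateral and 2.60 ipsilateral in early pool 1, 97.4 and 3.15 in early pool 2, 114 and 60.3 in late pool 1, and 120 and 4.64 in late pool 2. The contralateral side was higher in all 4 pools, although the early pool 1 values are 2 UMIs and 1 UMI. C1qa, Ccl3, Ccl4 and Ctss were higher in 3 of 4 pools, with log2 ratios of -0.44, -0.33, -3.51 and -0.79 in early pool 1. Over the microglia list 5 of 8 tested genes passed. C1qa and C1qb were among the markers that chose the mixed cells, so their loss without those cells is set by that choice. C1qc, Ccl3, Ccl4 and Ctss were not among them, and had 90.7%, 79.8%, 79.5% and 81.9% of their UMIs in mixed cells. The 16 cells with at least 5 microglial UMIs included 12 contralateral, 3 ipsilateral and 1 control cell. Without late pool 2, 0 genes passed.

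With the 65 mixed cells left out, 879 cells remained and 1 of 6864 genes passed (0.0146%). This was Cxcl10, an interferon-induced chemokine gene on chromosome 5 (92346638 to 92348889). In these cells it stood at 271 CPM contralateral and 131 ipsilateral in early pool 1, 137 and 160 in early pool 2, 296 and 223 in late pool 1, and 406 and 186 in late pool 2. The contralateral side was higher in 3 of 4 pools, by a log2 difference of 0.64 ± 0.14 (SE) with adjusted p = 0.0347 in edgeR's quasi-likelihood test with Benjamini-Hochberg adjustment. Over all cells it had also passed, at 0.66 ± 0.14 with adjusted p = 0.00391 in the same edgeR test. With doublets removed it did not pass (log2 0.54, adjusted p = 0.439 in edgeR). Nor did it pass over all cells with stage and kit class in place of the pool (0.65, adjusted p = 0.222), without early pool 1 (0.58, adjusted p = 0.204) or without late pool 2 (0.45, adjusted p = 1.000). Cxcl10 had 747 UMIs in 200 cells, so 21.2% of ependymal cells showed it, or 12.0% after thinning, against 2.54% of other striatal cells without thinning, at the median depths given above. A single contralateral cell of early pool 1 held 50 of these UMIs, where its library had 150 in 20 cells. The 10 cells with the most held 29.5% of all Cxcl10 UMIs. Acox3, a peroxisomal acyl-CoA oxidase gene named after its values were seen, had passed over all cells and had 6.12% of its UMIs in mixed cells. Its log2 difference was 0.84 ± 0.20 over all cells and 0.81 without mixed cells, with adjusted p of 0.0298 and 0.299 in edgeR's quasi-likelihood test. Without early pool 1 it was 0.52. Cst3 had passed over all cells (log2 0.61 ± 0.09, adjusted p = 2.74e-06 in edgeR's quasi-likelihood test). Without mixed cells its log2 difference was 0.25, with adjusted p = 0.999. The axoneme list had a median of 0.01 over 92 genes with 0 calls, and the median over all genes was 0.00.

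**Figure D4:**
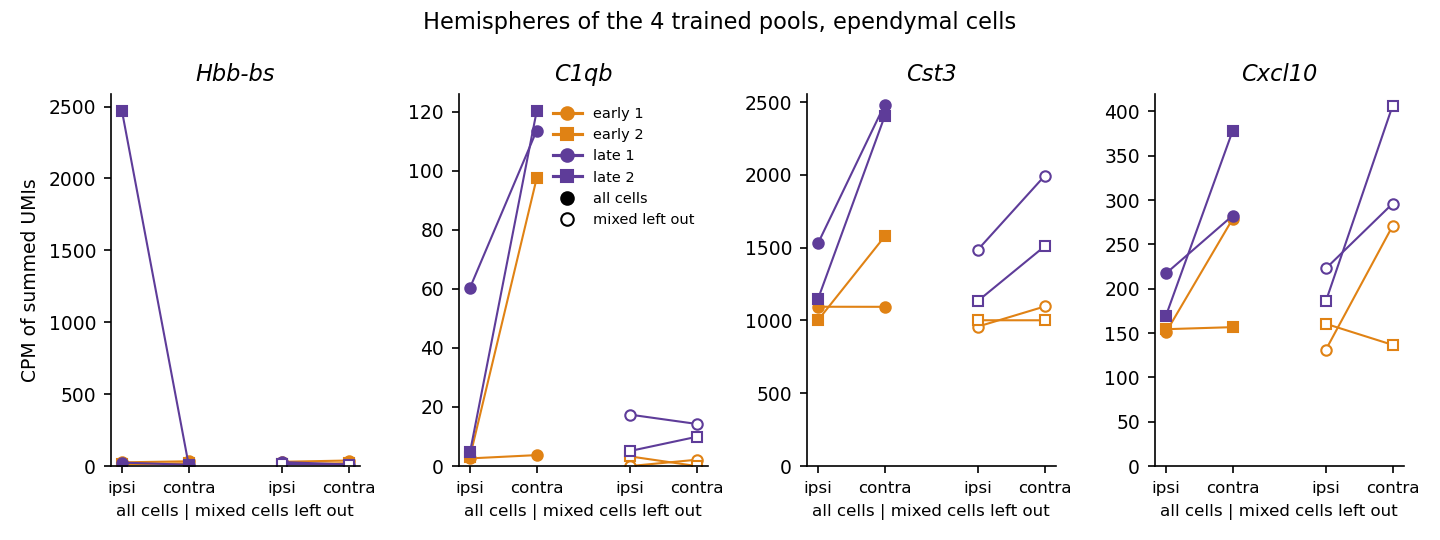
Levels of 4 genes in the contralateral and ipsilateral hemisphere of the 4 trained pools, in CPM of summed UMIs, for all ependymal cells (filled) and with the 65 mixed cells left out (open). Hbb-bs and C1qb were among the markers that chose the mixed cells. Without those cells the high Hbb-bs value of late pool 2, ipsilateral, falls from 2468 to 15.3 CPM, and the other libraries were already low. C1qb is then at most 17.4 CPM, while Cxcl10 keeps its order in 3 of 4 pools.

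Each pool held 1 male and 1 female mouse, so cells could be assigned to a mouse by Xist and 4 Y-linked genes. Of the 944 cells, 259 were assigned female, 223 male, 20 showed both and 442 neither. Among other striatal cells 29.0% showed neither, against 46.8% of ependymal cells. Female and male cells of the 4 trained pools were compared within pools over 6009 genes, leaving out the assigning genes. Within a pool the sex is also the individual mouse, and over 4 pools it is 4 mice of each sex.

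The test called 8 genes (0.133%), all higher in female cells, in edgeR's quasi-likelihood test with Benjamini-Hochberg adjustment, while DESeq2 called 0. Ddx3x, an RNA helicase gene of the X chromosome (13280970 to 13294052) known to escape X inactivation, stood at 579 CPM in female and 338 in male cells of early pool 1, 388 and 295 in early pool 2, 456.5 and 194 in late pool 1, and 456.9 and 281 in late pool 2. Female cells were higher in all 4 pools, by a log2 difference of 0.73 ± 0.13 (SE) with adjusted p = 6.87e-05 in edgeR's quasi-likelihood test. In the other striatal cells the same ratio averaged 0.37 ± 0.07 (SD, n = 4) and was above 0 in all 4 pools. Its Y-linked partner Ddx3y was among the genes that assigned cells to the male.

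Tsc22d3, a glucocorticoid-induced gene also on the X chromosome (140539528 to 140600659), had 476 and 140 CPM in female and male cells of early pool 1, 412 and 303 in early pool 2, 325 and 172 in late pool 1, and 421 and 369 in late pool 2. The pools all had the same direction but differed in size, with a fitted log2 difference of 0.82 ± 0.14 (SE) and adjusted p = 2.15e-05 in edgeR's quasi-likelihood test. This SE is that of the fit and not the spread between pools. The log2 ratios of the 4 pools averaged 0.83 with an SD of 0.69. Id1, an inhibitor of bHLH transcription factors, had 161 and 109 CPM in early pool 1, 260 and 81.5 in early pool 2, 200 and 86.1 in late pool 1, and 208 and 83.2 in late pool 2. Female and male values of Id1 did not overlap over the 4 pools, and its log2 difference was 1.13 ± 0.20 (adjusted p = 2.40e-05 in edgeR's quasi-likelihood test).

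Hspb1, a small heat shock protein gene, had the largest size among genes that also passed without mixed cells. It stood at 134 and 63.6 CPM in early pool 1, 147 and 34.9 in early pool 2, 43.8 and 0 in late pool 1, and 184 and 59.4 in late pool 2, with a fitted log2 difference of 1.54 ± 0.24 (adjusted p = 1.58e-06 in edgeR's quasi-likelihood test). The late pool 1 values rest on 7 UMIs in female and 0 in male cells. Etnppl, which degrades phosphoethanolamine and is an astrocyte gene, averaged 209 ± 28.5 CPM in female and 116 ± 22.4 in male cells (SD, n = 4). The matricellular gene Cyr61 averaged 1336 ± 227 and 1035 ± 148 CPM. Both were higher in female cells of all 4 pools, by log2 0.86 ± 0.19 and 0.39 ± 0.10 (SE), with adjusted p of 0.00506 and 0.0434 in edgeR's quasi-likelihood test. With doublets removed Etnppl did not pass (log2 0.83, adjusted p = 0.0663 in edgeR). With 1 pool left out, Hspb1 passed each time and Cyr61 never did. Tsc22d3 did not pass without early pool 1 (log2 0.42), Id1 (1.07) and Ddx3x (0.73) without late pool 2, or Etnppl without either of those pools (0.80 and 0.70).

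Pcp4 and Nrgn, which are neuronal genes, were the remaining calls, and 46.6% and 55.9% of their UMIs lay in mixed cells. Without mixed cells 7 of 5695 genes passed (0.123%), of which 6 were among the 8 above. Pcp4 then had a log2 difference of 0.53 with adjusted p = 0.994 in edgeR's quasi-likelihood test, and the chaperone gene Dnajb1 passed at 0.54 ± 0.12, which over all cells had 0.43 and did not pass (adjusted p = 0.130 in edgeR). Dnajb1 was higher in female cells of 3 of 4 pools, and its difference over all cells was 0.26 without early pool 2, 0.29 without late pool 2 and 0.68 without early pool 1. In the other striatal cells the mean log2 ratio of female to male was 0.50 ± 0.45 for Hspb1, 0.37 ± 0.37 for Tsc22d3, 0.28 ± 0.34 for Id1, 0.53 ± 0.24 for Etnppl and 0.21 ± 0.35 for Cyr61 (SD, n = 4). By the same measure and in this order, ependymal cells had 2.55 ± 2.00, 0.83 ± 0.69, 1.19 ± 0.46, 0.85 ± 0.46 and 0.36 ± 0.10. Astrocytes had 2.72, 0.57, 0.10, 0.81 and 0.05, with Hspb1 at 0 CPM in male astrocytes of early pool 1 and late pool 1. Neuroblasts had 1.51, 0.11, -0.16, 0.39 and 0.42. Whether the sex difference differs between ependymal and other cells was not tested. The axoneme list had a median of -0.00 over 89 genes, with 0 calls.

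**Figure D5:**
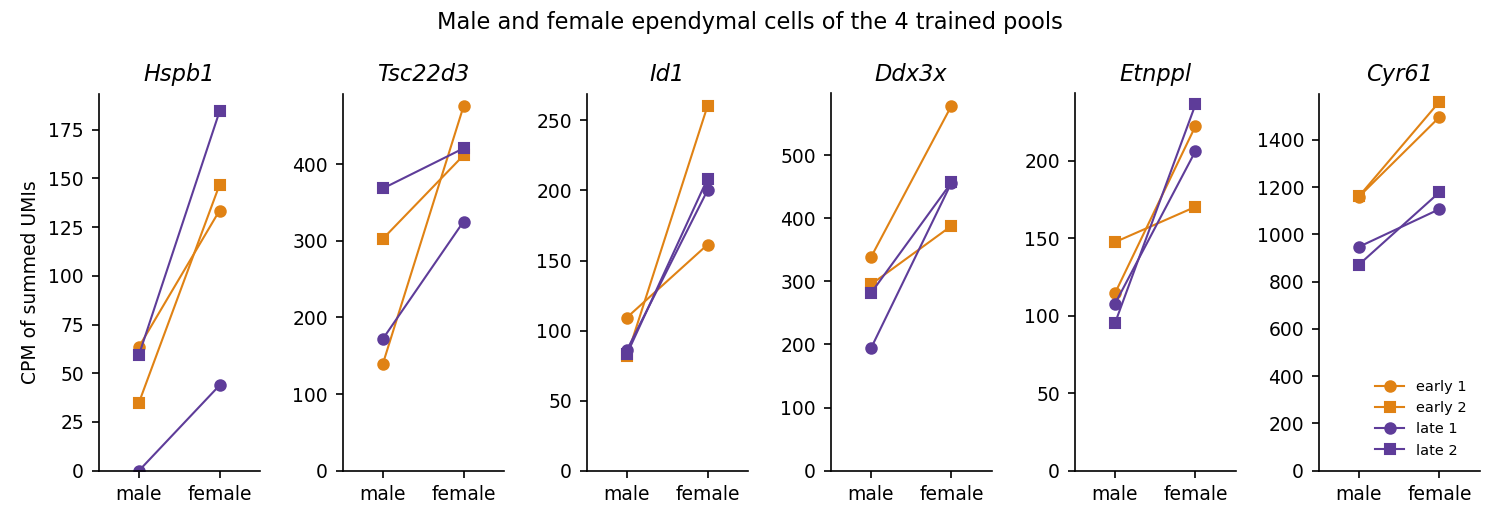
Levels in female-assigned and male-assigned ependymal cells of the 4 trained pools, in CPM of summed UMIs, 1 line per pool. Lines rise from male to female in all 4 pools for Hspb1, Tsc22d3, Id1, Ddx3x, Etnppl and Cyr61.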

How the data were processed

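Per the submitters' processing notes, the authors used Cell Ranger 3.1.0 and GRCm38 (mm10), while the headers of the deposited matrices give 3.0.2 as software version. The deposited values are raw UMI counts per gene and cell barcode. The kit (version 2 or 3) of each library was not stated and was inferred from shared barcodes. The right library of control pool 1 was not analysed here. Members and gene lists were chosen with earlier results of these data known. CPM values are UMIs summed over the ependymal cells of a pool, divided by their total. The striatal libraries had medians of 2048 to 3994 UMIs per passing cell, and 3′ counts were not divided by gene length.

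Counts were summed per pool, per library or per pool and sex, and tested with edgeR 4.0.16 (TMM, filterByExpr, quasi-likelihood F test, Benjamini-Hochberg adjusted p under 0.05, at least 10 cells per sum) in R 4.3.3. Covariates were kit class for stages and the pool as a block for hemispheres and sexes. The SE of each log2 difference was derived from edgeR's F statistic, so it belongs to the fit and is not the spread between pools. DESeq2 1.42.0 was an alternative. Shares were compared with exact permutation tests (scipy 1.17.1). Scrublet (in scanpy 1.11.5) scored doublets. Only an alternative left out the highest scores, 0.8% of a library for each 1000 barcodes it held. Astrocytes and neuroblasts were called with at least 5 UMIs of their markers. The edgeR step was tested on simulated data. Named genes were the 6 rule genes, the 4 members of each list with the highest mean CPM and other members of at least 50 CPM or that departed from their list, the leading 20 by ratio to other cells, and up to 10 called genes per comparison, or the 5 with the smallest p. Exceptions named after their values were seen are Cxcl10, Acox3, Rgs10 and Dnajb1 among the calls, and list members below 50 CPM. Some genes that this rule names are not reported here. Leaving out mixed cells was chosen after seeing the data.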

Additional observations from a re-analysis of the deposited data

Results flagged for a closer look

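The share of ependymal cells in the contralateral minus the ipsilateral hemisphere was above 0 in both early pools and below 0 in both late pools. The differences were 0.0144 and 1.31 percentage points in early pools 1 and 2, and -0.0558 and -0.850 in late pools 1 and 2. The difference between the stages was not tested. In 0 of 6 other ways of choosing the cells did all 4 pools keep these signs, since early pool 1 was below 0 in 4 of them and late pool 1 above 0 in 3. In late pool 1 the stricter filter gave 0.901 points and a marker sum of at least 10 gave 0.734. Early pool 2 was above 0 and late pool 2 below 0 in all 6. The Wilson 95% intervals of the hemispheres overlapped in early pool 1 and late pool 1, and did not in early pool 2 and late pool 2. These intervals cover counting error of cells only, and not the dissection or the spread between pools.

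The contralateral to ipsilateral log2 ratio of Hbb-bs also had opposite signs, at 0.35 and 0.56 in early pools 1 and 2, and -1.30 and -7.98 in late pools 1 and 2. The difference between the stages was not tested. One ipsilateral cell of late pool 2 held 93.6% of all Hbb-bs UMIs, and with that cell's library aside the ratios rest on 3 to 18 UMIs per library.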

How the results depend on the processing

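The counts of called genes were small and moved with most settings. For early against control (0 genes), 18 passed with no filter on low counts, 1 with the stricter cell filter, 1 with a marker sum of at least 10, and 8 to 74 when each pool was left out. For late against control (2), 24 passed with no filter, 6 with the stricter filter, 4 with a marker sum of at least 10, and 5 to 73 with a pool left out. For late against early (3), the same settings gave 59, 1, 6 and 11 to 83. DESeq2, no kit covariate, doublets removed and mixed cells left out each gave 0 for both late comparisons. With the replicate block in place of kit class, 0, 0 and 4 genes passed in the 3 comparisons. The replicate numbers follow record order and pair no samples. Between hemispheres (15), 27 passed with no filter, 0 with DESeq2, 7 with stage and kit class in place of the pool, 0 with doublets removed, 1 with mixed cells left out and 0 to 14 with a pool left out. Between sexes (8), 15 passed with no filter, 0 with DESeq2, 5 with doublets removed and 4 to 10 with a pool left out, the 4 being without late pool 2.

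The stricter filter gave share differences of 1.14 (late minus control) and -0.0840 (late minus early) points, and a marker sum of at least 10 gave 0.390 for late minus early. With a pool left out, shares differed by 0.587 to 1.26 (early minus control), 1.20 to 2.34 (late minus control), 0.281 to 1.42 (late minus early) and -0.297 to 0.422 (contralateral minus ipsilateral). The axoneme share was 1.92% to 1.98% with a pool left out, 1.91% with the stricter filter, 1.95% with a marker sum of at least 10, 2.00% with doublets removed and 1.99% without mixed cells.

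Some log2 differences changed sign. Hbb-bs with doublets removed was -0.80 for the control and -0.91 for the early contrast of late pools, and without mixed cells -0.88 and -1.05. With a pool left out, it ranged from -1.29 (without late pool 2) to 6.18 against control, where it was -1.24 without control pool 2, and from -1.56 (without late pool 2) to 6.22 against early. In late against early, the same range was -0.55 to 7.20 for Hba-a1, -1.13 to 3.05 for Gm9780 and -0.92 to 4.69 for Gm15772, each lowest without late pool 2. In early against control it was -2.56 to 0.52 for Sec61g, highest without control pool 2. For mt-Nd3 in late against control it was -2.10 to 0.10, highest without control pool 2 and 0.045 without late pool 2. Kit class stayed in these fits. Without control pool 2 or without late pool 2, late against control came down to late pool 1 against control pool 1. These 2 fits are therefore not separate evidence. Without late pool 2, late against early used a kit difference taken from the control pools. Without control pool 2, early against control used one taken from the late pools. Other causes of these changes were not tested. Summed UMIs per pool ran from 144108 and 204488 in the control pools to 923107 in early pool 1.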

Other observations

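Male-assigned cells had a larger ependymal share than female-assigned cells in 6 of 6 pools. The shares were 0.747% and 0.689% in control pool 1, 0.426% and 0.406% in control pool 2, 1.72% and 1.04% in early pool 1, 2.35% and 1.02% in early pool 2, 2.75% and 1.60% in late pool 1, and 2.38% and 1.23% in late pool 2. Assignment needs a UMI of Xist or of a Y-linked gene, and 46.8% of ependymal and 29.0% of other cells had neither. The part of detection in this difference was not tested.

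Acta2 and Tagln, which are smooth muscle actin cytoskeleton genes, stood at 327 ± 101 and 149 CPM in ependymal cells, against 192 and 140 in all other cells. Acta2 was detected in 46.7% of ependymal cells and 3.33% of the others, and in 24.3% of ependymal cells after thinning to 1000 UMIs. By pool it ranged from 127 CPM in control pool 2 to 398 in early pool 2. The mural markers Rgs5 and Vtn were at 15.01 and 6.54 CPM in the same cells, against 152 and 136 in the others, and 4 cells had at least 5 mural marker UMIs.

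The complement gene C3 had 150 UMIs and was seen in 11.5% of ependymal cells against 0.0859% of the others. It averaged 43.2 ± 13.9 CPM (SD, n = 6 pools), from 26.6 in early pool 2 to 58.7 in control pool 2.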
